A study of Mus musculus with 4 samples.

Results

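The genes described here are 10 markers of macrophages, the phagocytes that reside in fat and take up debris and lipid. They fall into 4 genes of lipid-laden macrophages (Gpnmb, Trem2, Spp1 and Itgax) and 6 genes of macrophage identity (Adgre1, Mpeg1, Itgam, Fcgr1, Cd68 and Mrc1). The members were chosen by name with their values on these arrays already known, so their levels are a description and carry no test. Where a gene had several probe sets, the one brightest on average was used. Of the 10 genes, 8 were measured among 19505 genes in all, and 7 of the 8 had a mean above a floor at log2 4.67, the 40th percentile of gene means. Spp1 and Cd68 are not analysed here, because the annotation used names neither for a probe set.

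RNA came from epididymal adipose tissue of male mice, the fat pad beside the epididymis, and was hybridised to Clariom S Mouse arrays. There were 4 arrays, 1 per group. The groups were GW4869 with muscle overload, GW4869 with sham surgery, vehicle with muscle overload and vehicle with sham surgery, where the vehicle was DMSO. GW4869 inhibits neutral sphingomyelinase and thereby the release of extracellular vesicles, and overload was produced by synergist ablation, the removal of the muscles that assist the one studied. The sources used here do not give strain, age, dose, timing or the number of mice behind an array. With 1 array per group no difference has a replicate error, the number of arrays limits the precision, and no p-value was computed. All levels are the authors' log2 values and all differences are differences of those values. In whole tissue, more macrophages and more RNA per macrophage cannot be told apart.

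Macrophages of fat pads take up lipid from adipocytes, and in obese fat a lipid-laden state gathers around dying adipocytes. TREM2 is the lipid-sensing receptor of that state and signals through the adaptor TYROBP. GPNMB is a glycoprotein of lysosomes and the cell surface whose gene is switched on when lysosomes are loaded. Adgre1 encodes an adhesion-type receptor long used as the surface antigen of mouse macrophages, Mpeg1 the pore-forming perforin-2, Itgam and Itgax the integrin chains CD11b and CD11c, Fcgr1 the high-affinity receptor for IgG, and Mrc1 the mannose receptor CD206 of resident macrophages.

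The promoters of 4 members are shown as examples of the profiles described below. Gpnmb had the largest GW4869 differences of the set, and Itgam followed both injection and surgery. Trem2 and Mrc1 had overload differences of opposite sign under GW4869 and under vehicle, as did 54.4% of all measured genes. The sequences are those of RefSeq on GRCm38.p6, from 250 bases before to 50 bases after the gene start, written along the gene's own strand. Capitals mark matches, on either strand, to the core of PU.1, the myeloid master regulator (GAGGAA), to the AP-1 motif TGANTCA, and to the E-boxes CACGTG and CATGTG that MiT factors can bind. No match of 1 motif overlapped a match of another in these 4 windows.
Gpnmb, chr6:49036268-49036567, plus strand: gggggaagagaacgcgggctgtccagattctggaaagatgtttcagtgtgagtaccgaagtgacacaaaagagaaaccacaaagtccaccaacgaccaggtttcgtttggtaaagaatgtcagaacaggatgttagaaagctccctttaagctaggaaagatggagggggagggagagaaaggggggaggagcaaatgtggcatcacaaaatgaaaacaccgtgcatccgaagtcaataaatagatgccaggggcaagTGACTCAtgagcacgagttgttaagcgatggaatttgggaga
Itgam, chr7:128062390-128062689, plus strand: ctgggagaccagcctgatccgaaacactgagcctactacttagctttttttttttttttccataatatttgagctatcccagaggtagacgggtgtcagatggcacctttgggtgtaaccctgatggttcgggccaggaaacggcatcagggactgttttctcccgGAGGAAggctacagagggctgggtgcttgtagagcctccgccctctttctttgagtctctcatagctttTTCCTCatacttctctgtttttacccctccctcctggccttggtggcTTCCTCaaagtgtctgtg
Trem2, chr17:48346151-48346450, plus strand: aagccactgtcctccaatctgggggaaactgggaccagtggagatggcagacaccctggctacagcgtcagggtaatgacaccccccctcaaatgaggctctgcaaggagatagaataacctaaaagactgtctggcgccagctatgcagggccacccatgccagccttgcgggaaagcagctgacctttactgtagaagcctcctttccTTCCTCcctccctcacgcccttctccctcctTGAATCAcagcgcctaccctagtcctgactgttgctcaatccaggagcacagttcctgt
Mrc1, chr2:14229164-14229463, plus strand: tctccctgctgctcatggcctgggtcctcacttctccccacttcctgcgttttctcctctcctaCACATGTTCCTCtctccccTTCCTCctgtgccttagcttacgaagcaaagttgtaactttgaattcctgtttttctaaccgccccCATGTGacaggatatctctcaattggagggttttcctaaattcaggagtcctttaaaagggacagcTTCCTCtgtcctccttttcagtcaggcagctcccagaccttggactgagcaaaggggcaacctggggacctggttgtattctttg
An entry was found for 9 of the 10 genes, all but Adgre1. GAGGAA lay in windows of 6 of the 9 (Mrc1, Fcgr1, Spp1, Itgam, Cd68 and Trem2), and in 28.3% of all 32851 windows. TGANTCA lay in those of 4 (Gpnmb, Itgax, Cd68 and Trem2), against 7.81% of all windows. CATGTG lay in those of Mrc1 and Fcgr1, against 14.2% of all windows, and CACGTG in 0 of the 9, against 7.15%. A match is a run of letters and not a known binding site.

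The tissue label was checked first. Genes of mature adipocytes had median levels of 16.17 on the GW4869 overload array, 16.50 on GW4869 sham, 16.51 on vehicle overload and 16.34 on vehicle sham, so adipose RNA was on every array. Transcripts of the male reproductive tract were also there, unevenly. The sperm and testis list had medians of 4.53, 3.27, 3.91 and 14.98 in the same order of arrays, high on vehicle sham alone. The epididymal epithelium list had 13.68, 3.77, 3.43 and 4.18, with its median high on GW4869 overload alone. Some of its genes were also high on vehicle sham, where Adam7 read 14.64, Lcn5 14.22 and Spint4 15.55, and Spint4 read 4.36 on GW4869 overload. The list of the distal epididymis and vas deferens had 5.33, 12.87, 3.19 and 13.15, with its median high on both sham arrays, and its gene Spink8 read 12.28 on GW4869 overload as well. Vehicle overload had no high median among these 3 lists. Readings have no detection flags. Over 23 antigenomic background rows the 95th percentile was 6.34 to 6.40, depending on the array, and over 5222 negative control rows 9.01 to 9.27, so a reading below about 9 can still lie within background. Trem2, Fcgr1 and Itgax were under the negative control percentile on all 4 arrays, while Mrc1 was above it on all 4. Gpnmb and Itgam were under it on vehicle sham, and Adgre1 and Mpeg1 on both vehicle arrays, so differences taken against those readings are less certain in size.

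**Figure D1:**
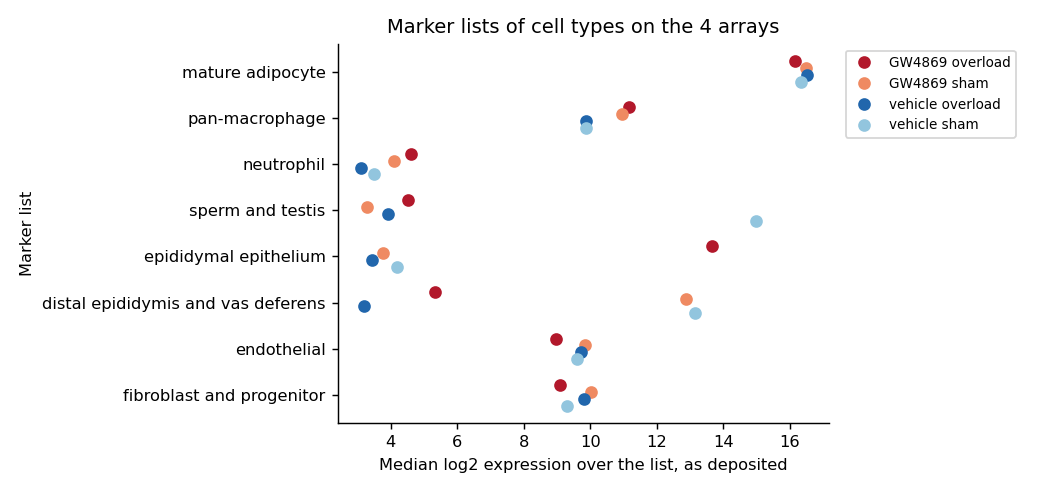
Median log2 expression over marker lists of cell types (vertical axis) on the 4 arrays, 1 point per array. Adipocyte medians lie between 16.17 and 16.51 on all arrays, while the sperm list is high on vehicle sham (14.98) and the epididymal list on GW4869 overload (13.68).

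On these arrays macrophage genes were mostly higher with GW4869 than with vehicle, after overload and after sham surgery. In 6 of the 8 measured genes (Gpnmb, Trem2, Adgre1, Mpeg1, Itgam and Mrc1) both GW4869 arrays read above both vehicle arrays. The same held for 19.1% of all 19505 measured genes. The exceptions were Fcgr1, whose GW4869 sham reading lay 0.25 below vehicle overload, and Itgax, whose readings all lay within background. For Mrc1 the gap was 0.04 log2 units, too small to read as a separation, and its GW4869 difference in overload turned to -0.044 with the arrays centred on all genes above the floor. The lowest array was vehicle sham for all 8 genes, and that array also carried testis and some epididymal transcripts, whose part in the result was not tested.

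Gpnmb stood out within the set. It read 14.53 on GW4869 overload and 13.08 on GW4869 sham, against 9.50 on vehicle overload and 7.66 on vehicle sham. The 2 GW4869 arrays were thus far above both vehicle arrays, with a gap of 3.57 between the nearest. The GW4869 differences were 5.02 in overload and 5.42 in sham, or 32.5-fold and 42.8-fold on the deposited scale. The vehicle sham reading lay within the range of the negative controls, and with their 95th percentile on that array in its place the difference in sham was 4.07, or 16.7-fold. The other measured members had differences between -0.21 and 2.56 in overload and between 0.88 and 2.99 in sham. Overload came with higher Gpnmb under either injection, by 1.45 under GW4869 and by 1.85 under vehicle, the second of which was 0.49 with the same percentile in place of the vehicle sham reading.

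Gpnmb is also a gene of pigment cells, and 4 melanocyte genes looked up for that reason, Tyr, Tyrp1, Dct and Mlana, read at most 3.64 on any array. Pmel, the closest relative of Gpnmb, read 6.82 on GW4869 overload, 4.03 on GW4869 sham, 4.51 on vehicle overload and 3.90 on vehicle sham. It was thus above the antigenomic background on GW4869 overload only. Of the MiT transcription factors, which control lysosomal genes and Gpnmb, Mitf read 7.58, 8.44, 7.97 and 6.71 on those arrays and Tfec 7.90, 7.01, 7.03 and 5.31. Both were lowest on vehicle sham, and for both genes the GW4869 readings overlapped the vehicle readings. Tfe3 read 8.75, 8.41, 8.06 and 7.53, so that both GW4869 arrays were above both vehicle arrays, with GW4869 differences of 0.69 in overload and 0.87 in sham. Tfeb was under the antigenomic 95th percentile on all 4 arrays.

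**Figure D2:**
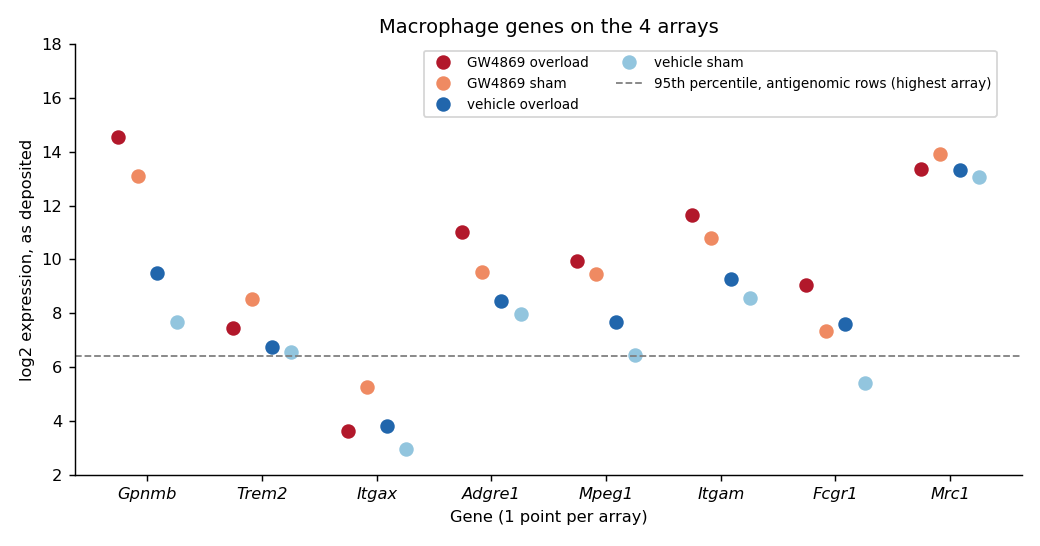
Log2 expression (vertical axis) of the 8 measured macrophage genes on the 4 arrays, 1 point per array, with the antigenomic background level as a dashed line. Gpnmb spans 6.87 log2 units between GW4869 overload and vehicle sham, Mrc1 spans 0.88, and Itgax lies under the line on every array.

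Trem2 had its highest reading on GW4869 sham. It read 7.45 on GW4869 overload, 8.54 on GW4869 sham, 6.75 on vehicle overload and 6.56 on vehicle sham. GW4869 differences were 0.70 in overload and 1.97 in sham. Overload came with a lower value under GW4869 (-1.09) and a near equal one under vehicle (0.18), so the 2 overload differences had opposite signs. All 4 readings were within the range of the negative controls. Trem2 and Gpnmb are both known as genes of the lipid-laden state, yet here their highest arrays differed.

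Itgax, the CD11c chain of dendritic cells and of macrophages in inflamed fat, read 3.62, 5.25, 3.83 and 2.96 on GW4869 overload, GW4869 sham, vehicle overload and vehicle sham. All 4 readings lay under the antigenomic 95th percentile, so no difference is read from them. Of 12 measured dendritic cell genes, 7 had a mean above the floor, against 11703 of all 19505 measured genes. The floor lies below the antigenomic median of every array (5.12 to 5.28), so passing it does not show detection. The brightest of the list, Cd209a, read 6.32, 7.60, 7.31 and 7.09 on those arrays. Flt3, Xcr1 and Clec9a, of the same list, were at or below 3.64 on every array.

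Among the identity genes, Itgam and Mpeg1 were close to the average of the set. Itgam, whose product pairs with the beta-2 chain on macrophages and neutrophils, read 11.65 on GW4869 overload, 10.81 on GW4869 sham, 9.29 on vehicle overload and 8.55 on vehicle sham. The arrays lay in that order, with GW4869 differences of 2.36 in overload and 2.26 in sham and overload differences of 0.84 under GW4869 and 0.74 under vehicle. Itgb2, the gene of that beta-2 chain, had the same order at 9.19, 8.75, 7.17 and 6.32. Neutrophils also carry the Itgam product, and the neutrophil genes S100a8 and Csf3r read 8.63 and 8.72 on GW4869 overload, but at most 5.14 and 5.98 on any other array. On GW4869 sham, where Itgam was already 2.26 above vehicle sham, 4 of 9 measured neutrophil genes were at least 1.5-fold higher than on vehicle sham and 1 was lower, against 24.3% of all measured genes higher. All 4, S100a8, S100a9, Csf3r and Retnlg, lay under the antigenomic 95th percentile on both sham arrays. The part of neutrophils in the Itgam level was not tested.

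Mpeg1, which arms phagosomes against bacteria, read 9.94 on GW4869 overload, 9.44 on GW4869 sham, 7.69 on vehicle overload and 6.45 on vehicle sham. Its GW4869 differences were 2.25 in overload and 2.99 in sham, next to those of Gpnmb in sham, and its overload differences 0.50 under GW4869 and 1.23 under vehicle. The vehicle sham reading was only just above the antigenomic 95th percentile of 6.40 on that array. Both vehicle readings lay under the negative control 95th percentile. With it in their place the GW4869 differences of Mpeg1 were 0.75 in overload and 0.43 in sham, and its overload difference under vehicle was 0.18.

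Adgre1, the gene of the classical mouse macrophage antigen, read 11.02 on GW4869 overload, 9.52 on GW4869 sham, 8.47 on vehicle overload and 7.97 on vehicle sham. The overload difference was larger under GW4869 (1.51) than under vehicle (0.49), and the GW4869 difference larger in overload (2.56) than in sham (1.55). The difference between the 2 overload differences, 1.01, was the highest of the 8 genes, and it has no error estimate.

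Fcgr1 was higher in overload than in sham under either injection, at readings near background. It read 9.06 on GW4869 overload, 7.35 on GW4869 sham, 7.60 on vehicle overload and 5.42 on vehicle sham. Overload differed from sham by 1.72 under GW4869 and by 2.17 under vehicle. GW4869 differed from vehicle by 1.47 in overload and by 1.92 in sham. The vehicle sham reading lay within antigenomic background, and with the antigenomic 95th percentile in its place the overload difference under vehicle was 1.20 and the GW4869 difference in sham 0.95. All 4 readings lay within the range of the negative controls, so the size of these differences is not established.

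Mrc1 differed least between the arrays. The CD206 gene read 13.37 on GW4869 overload, 13.92 on GW4869 sham, 13.33 on vehicle overload and 13.05 on vehicle sham. Only GW4869 sham against vehicle sham, at 0.88, passed 1.5-fold among its 4 comparisons. Its overload difference was -0.55 under GW4869 and 0.28 under vehicle.

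In counts, 6 of 8 genes were at least 1.5-fold higher with GW4869 than with vehicle in overload, with 0 lower. All 8 passed that threshold in sham, Itgax within background among them, again with 0 lower. Over all 19505 genes the shares past 1.5-fold higher were 15.1% in overload and 24.3% in sham. The median difference over the 8 genes was 1.86 in overload and 2.12 in sham, against medians over all measured genes of -0.08 and 0.19. With the negative control 95th percentile in place of lower readings, only Gpnmb, Adgre1, Mpeg1 and Itgam still passed 1.5-fold in overload. In sham only Gpnmb, Itgam and Mrc1 did. There Adgre1 had 0.51 and Mpeg1 0.43, and Trem2, Fcgr1 and Itgax had 0.17 each, a difference between the controls alone. The members were picked with these values known, so the shares describe the contrast and give it no support.

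**Figure D3:**
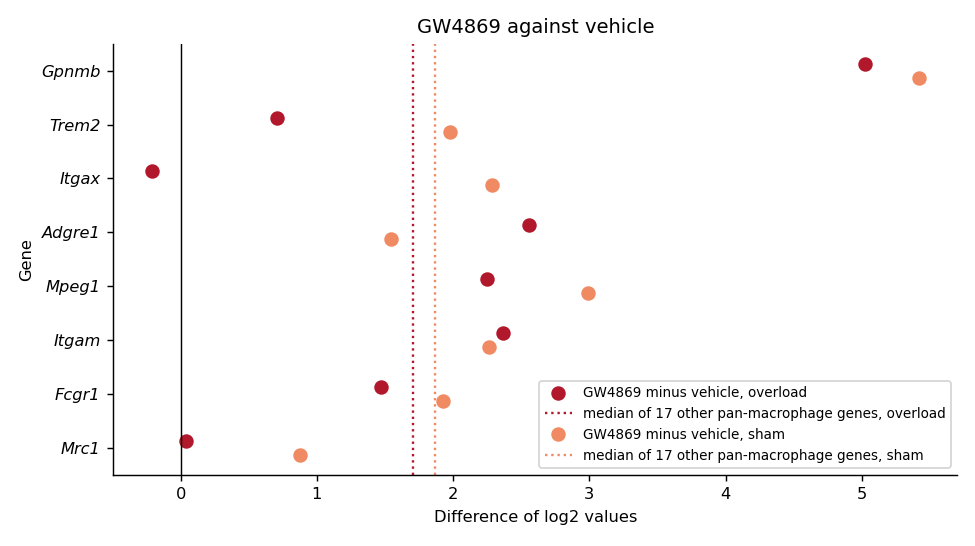
Difference of log2 values, GW4869 minus vehicle (horizontal axis), for each of the 8 genes in overloaded and in sham mice, 1 point per pair of arrays. Dotted lines mark the median of 17 other pan-macrophage genes (1.71 in overload, 1.87 in sham); Gpnmb lies at 5.02 and 5.42, and Mrc1 at 0.04 and 0.88.

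Other genes that most macrophages express shared the pattern. Of 17 measured members of a pan-macrophage list, 13 were at least 1.5-fold higher with GW4869 in overload and 0 lower. In sham 15 were higher and 1 lower. The medians were 1.71 and 1.87, and the shares of all measured genes higher were 15.1% and 24.3%. Csf1r, the receptor for the growth factor CSF1, read 12.05, 12.75, 11.69 and 11.16 on GW4869 overload, GW4869 sham, vehicle overload and vehicle sham. Ptprc, the CD45 gene of all leukocytes, read 11.17, 10.94, 9.87 and 8.77. Tyrobp, through which TREM2 signals, read 9.66, 9.14, 7.86 and 7.27. Like Itgam, Ptprc and Tyrobp were in the order of the arrays just listed, whereas Csf1r, like Trem2, was highest on GW4869 sham. The 1 gene lower in sham was Aif1, which had 7.86 on GW4869 sham against 11.16 on vehicle sham. That array also carried testis transcripts, whose part in this reading was not tested.

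Against the pan-macrophage list, the members separated. Every array was centred on the gene-centred values of that list, a scale added after the data had been seen. Gpnmb then remained 3.44 higher with GW4869 in overload and 3.58 in sham. Mpeg1 was 0.66 and 1.15 higher, and Itgam 0.78 and 0.42. Mrc1 was -1.54 and -0.96, and Fcgr1 -0.12 and 0.08. On this scale Gpnmb lay far above 0, Mrc1 below it and Fcgr1, with all readings within the range of the negative controls, close to it. Adgre1 had 0.97 in overload and -0.30 in sham, and Itgax, within background, had -1.80 and 0.45. Trem2 had -0.88 in overload and 0.13 in sham on this scale.

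The 5 genes outside the set whose profile over the 4 arrays was most like the mean profile of the 8, by Euclidean distance between gene-centred log2 values, were Ctss, Hmox1, Itgb2, Cxcl16 and Ms4a7. Their distances were 0.11, 0.17, 0.17, 0.23 and 0.27 log2 units. Ctss, a lysosomal protease of antigen-presenting cells, read 13.55 on GW4869 overload, 13.06 on GW4869 sham, 11.73 on vehicle overload and 10.76 on vehicle sham. Hmox1, which degrades haem, read 11.72, 11.48, 10.11 and 9.20. Of the members, Itgam and Mpeg1 were nearest to the mean profile (0.45 and 0.57) and Gpnmb farthest from it (3.28). With 4 arrays a small distance is easily met and describes these arrays alone.

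Genes of the lipid-laden state outside the set were mixed. Of 21 measured, 7 were at least 1.5-fold higher with GW4869 in overload and 3 lower. In sham 13 were higher and 1 lower. Over all 19505 measured genes, 15.1% were higher and 3785 genes lower in overload, and 24.3% higher and 2961 genes lower in sham. The medians of the list were 0.32 in overload and 0.81 in sham. Centred on the median level of pan-macrophage genes, those medians turned to -0.98 and -0.25, where the pan-macrophage list itself kept 0.40 and 0.81. On the gene-centred scale used for the members above, the lipid-laden medians were -1.26 in overload and -1.04 in sham. Lpl of this list is also in the mature adipocyte list, whose own medians as deposited were -0.70 in overload and 0.22 in sham. The part of adipocytes in the lipid-laden medians was not tested. Atp6v0d2, a subunit of the lysosomal proton pump, came nearest to Gpnmb in size. It read 12.62 on GW4869 overload, 10.49 on GW4869 sham, 8.20 on vehicle overload and 6.55 on vehicle sham, with GW4869 differences of 4.42 in overload and 3.94 in sham. That subunit is also made by epithelia that secrete acid, among them the epididymis. Transcripts of the epididymis were on GW4869 overload, GW4869 sham and vehicle sham, and their part in the Atp6v0d2 readings was not tested. Cd9, a tetraspanin of lipid-laden macrophages and of epithelia, read 12.09, 10.44, 9.35 and 9.20 on the 4 arrays in that order. Mmp12, macrophage elastase, read 13.55, 14.62, 13.36 and 12.57 and so had the order of Trem2 rather than that of Gpnmb. Apoe, the lipid carrier that binds TREM2 and is also made by adipocytes, read between 19.30 and 19.60 on all 4 arrays, near the top of the scale.

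The partners and relatives of the members were mixed as well. Of 6 measured Fc gamma receptors and partners, 5 were at least 1.5-fold higher with GW4869 in overload and 1 lower, and 5 were higher in sham and 0 lower, with medians of 1.08 and 1.48. Of 12 integrin partners and receptors for the product of Spp1, 6 were higher in overload and 7 in sham and 0 lower in either, with medians of 0.48 and 0.64. Of 9 mannose and scavenger receptors, 3 were higher and 2 lower in overload, and 8 were higher and 0 lower in sham. Their medians were 0.23 and 1.11. For these 3 lists, the shares of all measured genes higher were 15.1% in overload and 24.3% in sham. Lower were 3785 and 2961 of 19505 genes. Fcer1g, the signalling chain of the Fc receptors, read 13.04 on GW4869 overload, 12.11 on GW4869 sham, 11.17 on vehicle overload and 10.08 on vehicle sham. Fcgr2b and Fcgr3, receptors for IgG complexes, differed by 1.26 and 0.89 between GW4869 and vehicle in overload, and by 2.0 and 2.10 in sham. Fcgr4 read 6.45 on GW4869 overload and at most 4.30 on the other arrays. Fcgrt, the transporter of IgG, had a GW4869 difference of -0.76 in overload and 0.50 in sham. Cd44, a receptor for hyaluronan and for the product of Spp1, read 11.35, 10.88, 8.29 and 7.53, with GW4869 differences of 3.06 in overload and 3.34 in sham. Itgad, the CD11d gene, was near the floor throughout, between 4.41 and 4.79. Mrc2, the relative of Mrc1 found on fibroblasts, read 7.11, 7.74, 7.77 and 6.68, and its GW4869 difference was -0.66 in overload and 1.06 in sham. Msr1, a scavenger receptor of macrophages, read 8.13, 7.07, 5.08 and 5.77, with both vehicle readings within background.

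**Figure D4:**
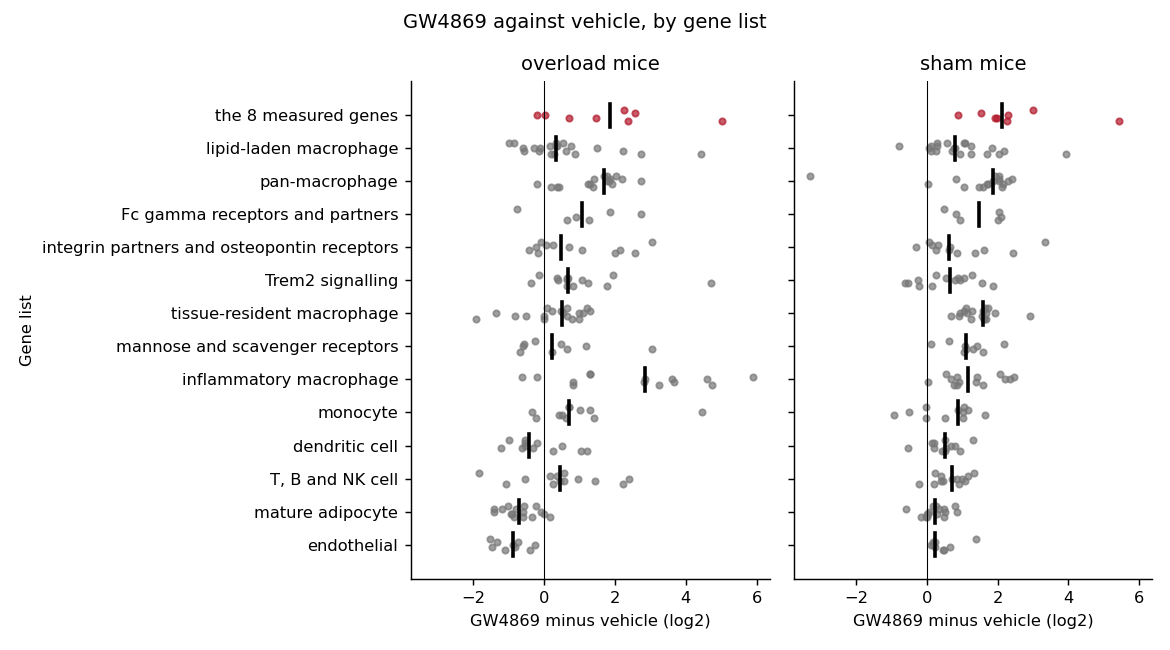
GW4869 minus vehicle differences of log2 values (horizontal axis) for every measured gene of 13 lists and for the 8 macrophage genes, in overloaded mice (left) and sham mice (right), with a bar at each median. The 8 genes and the pan-macrophage list have medians of 1.86 and 1.71 in overload and 2.12 and 1.87 in sham, while adipocyte genes have -0.70 and 0.22.

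Overload itself came with smaller differences. Under vehicle, 5 of the 8 genes passed 1.5-fold upwards in overload against sham (Gpnmb, Itgax, Mpeg1, Itgam and Fcgr1) and 0 lower, against 27.2% of all measured genes higher. Of those 5, Itgax lay within antigenomic background on both arrays and Fcgr1 on vehicle sham, and at a threshold of 2-fold 3 passed. With the negative control 95th percentile in place of lower readings, none of the 5 passed 1.5-fold, and the largest difference was 0.49, for Gpnmb. Under GW4869, 4 were higher (Gpnmb, Adgre1, Itgam and Fcgr1), against 12.1% of all measured genes, and 2 were lower (Trem2 and Itgax), against 14.7%. With the same percentile in place, Fcgr1, Trem2 and Itgax had 0.09 each under GW4869, a difference between the controls alone. The medians over the 8 genes were 0.67 under GW4869 and 0.80 under vehicle, and over all measured genes -0.05 and 0.21. Vehicle sham is subtracted both for overload under vehicle and for GW4869 in sham, so a low reading on that array raises either difference. Overload differences had opposite signs under GW4869 and under vehicle for 3 of the 8 genes (Trem2, Itgax and Mrc1), against 54.4% of all measured genes.

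Among the macrophage lists, overload under GW4869 had a negative median for resident genes and a positive one for inflammatory genes. Of 18 resident macrophage genes, 8 were at least 1.5-fold lower in overload than in sham under GW4869 and 1 higher. Their median was -0.53. Under vehicle 0 were lower and 8 higher, with a median of 0.50. Over all measured genes, 14.7% were lower and 12.1% higher under GW4869. Under vehicle 3259 of 19505 were lower and 27.2% higher. These signs of the resident median were not particular to macrophage genes. The fibroblast and progenitor list had medians of -0.78 under GW4869 and 0.59 under vehicle. In the same order the endothelial list had -0.65 and 0.78, and the mature adipocyte list -0.37 and 0.38. Retnla, a product of alternatively activated macrophages, read 14.37 on GW4869 overload, 16.64 on GW4869 sham, 15.72 on vehicle overload and 15.51 on vehicle sham. Folr2, the folate receptor of resident macrophages, read 11.44, 12.83, 10.90 and 10.89. Mrc1 shared that order at its top, with GW4869 sham the highest. Of 14 inflammatory genes, 6 were higher and 1 lower in overload under vehicle, with a median of 0.50, against 27.2% of all measured genes higher. Under GW4869 8 were higher and 2 lower, with a median of 1.34, against 12.1% higher. Of the 8, Tnf, Ccl4 and Cxcl2 lay under the antigenomic 95th percentile on all 4 arrays. Of the 2 lower, Nos2 lay under it on all 4 arrays too, and Ptgs2 is also in the list of the distal epididymis. Of the 6 higher under vehicle, Il1b, Tnf, Il6 and Ccl2 lay under the antigenomic 95th percentile on both vehicle arrays. With readings below the floor raised to it, the list median under vehicle was 0.0. Il1b, the interleukin-1 beta gene, read 9.88 on GW4869 overload and at most 5.13 on the others, and Ccl3, a chemokine of macrophages, read 9.65 against at most 5.96. Ccl2, which draws monocytes, read 10.94, 7.33, 6.34 and 5.11. The array with these high readings is also the one with the highest median of the epididymal epithelium list and of the neutrophil list, and their part was not tested.

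**Figure D5:**
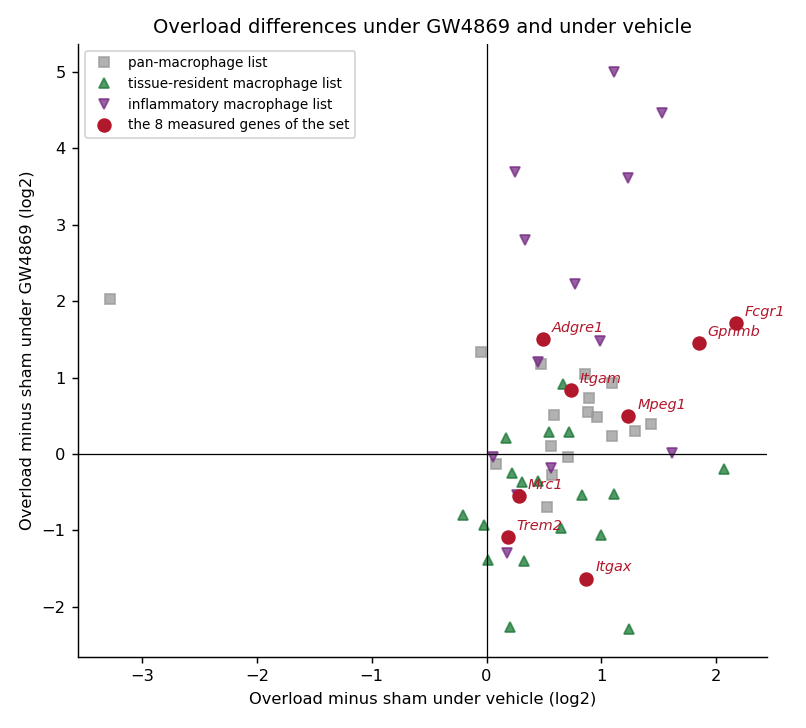
Overload minus sham under GW4869 (vertical axis) against overload minus sham under vehicle (horizontal axis), in log2 units, for the 8 genes of the set and for 3 macrophage lists, 1 point per gene. Fcgr1 and Gpnmb lie high on both axes, Trem2, Itgax and Mrc1 are below 0 on the vertical axis alone, and Ptgs2 (-11.74 and -8.12) lies outside the plot.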

How the data were processed

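Total RNA of the 4 tissues was labelled with biotin and hybridised to Clariom S Mouse arrays. The authors deposited a log2 value for each probe set. Partek and RMA are the tools in the submitters' processing notes, and the sources used here give no version, setting or genome build. The deposited log2 values reach 19.93, above what a scanner's raw brightness allows, so a fold holds on the deposited scale only. Of 28846 rows, 19572 had 1 gene symbol in the platform annotation, 0 several, and 2615 transcript clusters none. For 55 genes with several probe sets the one with the highest mean was kept, and each measured member had 1 probe set.

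Differences of log2 values were taken with Python 3.11.15 and pandas 2.3.3, and genes at least 1.5-fold apart were counted. The counting was tested on simulated data. No test was run, since each group has 1 array. The rule for named genes takes all members, their stated partners, up to 4 genes per list with the largest overload difference under each injection, and 5 nearest profiles. Tyr, Dct, Mlana, Tfeb, Lpl, Tnf, Ccl4, Cxcl2 and Nos2 lie outside it and were named after their values were seen. The members and the lists were chosen with earlier results of these data known. Putting the negative control percentile in place of dim readings was added after the data were seen. Alternatives were the scaling of the arrays, the floor, the probe set rule and the fold threshold.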

Additional observations from a re-analysis of the deposited data

Results flagged for a closer look

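Several macrophage results had overload differences of opposite sign under GW4869 and under vehicle, each from 1 pair of arrays, and the difference between them was not tested. Opposite signs were common on these arrays, with 10614 of all 19505 measured genes (54.4%), against 3 of the 8 macrophage genes. For Trem2 the overload difference under GW4869 minus that under vehicle was -1.27, and for Mrc1 -0.84. All 4 Trem2 readings lay under the negative control 95th percentile. With it in their place the overload differences of Trem2 were 0.09 under GW4869 and 0.18 under vehicle, so its opposite signs are not established. The median over the resident macrophage list was -0.53 under GW4869 and 0.50 under vehicle, which is a difference of -1.03. Fibroblast, endothelial and adipocyte lists also had negative medians under GW4869 and positive ones under vehicle. For Itgax the value was -2.50, from readings that all lay within background. The GW4869 differences of Itgax were of opposite sign too, -0.21 in overload and 2.29 in sham, and the same 4 readings give the same -2.50.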

How the results depend on the processing

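Each measured member has 1 probe set, so the mean over probe sets could not change a member value and is no check. Arrays were also centred on all genes above the floor, centred on adipocyte genes or quantile normalized. None of the medians and member differences moved by more than 1.5-fold on the linear scale there. No count of members changed by over 1.5 times. Small differences changed sign there: Mrc1 for GW4869 in overload (-0.044 when centred on all genes), and, when centred on adipocyte genes, Itgax for GW4869 in overload (0.12) and the difference of the overload differences of Gpnmb (0.10) and Fcgr1 (0.046). Centring on adipocyte genes took the median gene above the floor from -0.04 to 0.29 for GW4869 in overload and from 0.27 to 0.10 in sham, and the members' medians to 2.20 and 1.95. With readings below the floor raised to it, 1 member in place of 2 was lower in overload under GW4869, since Itgax lies there. At a threshold of 2-fold, 3 members in place of 5 were higher in overload under vehicle. Scaling to macrophage content moved more, as its construction implies. Centred on the median level of pan-macrophage genes, the members' median GW4869 difference was 0.56 in overload and 1.06 in sham, 3 members were lower with GW4869 in overload, 3 had both GW4869 arrays above both vehicle arrays, and Trem2 in overload (-0.60) and Mrc1 in sham (-0.18) reversed. On gene-centred values of that list, added after the data were seen, the medians were 0.27 in overload and 0.28 in sham. There 2 members were higher and 1 lower with GW4869 in sham, 3 were lower in overload, and 3 had both GW4869 arrays on top. Reversed were Trem2 (-0.88) and Fcgr1 (-0.12) for GW4869 in overload, Adgre1 (-0.30) and Mrc1 (-0.96) in sham, and Itgam (-0.013) for overload under vehicle, where the median was 0.054 and 2 members were higher. Leaving out each array in turn, also added later, gave 6 to 8 members with GW4869 above vehicle: 6 without vehicle sham (31.0% of all genes), 7 without GW4869 sham (31.8%), 7 without GW4869 overload (34.5%) and 8 without vehicle overload (48.0%). Leaving out any array can only keep or raise the 6 found with all arrays, so these counts are no check on it. No paired analysis was possible because each group has 1 array. Signal near background limits Trem2, Fcgr1 and Itgax most.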

Other observations

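Genes of macrophage growth and of other leukocytes were also read. Csf1, the growth factor that maintains macrophages, read 14.20 on GW4869 overload, 13.83 on GW4869 sham, 13.61 on vehicle overload and 12.63 on vehicle sham, and Il34, the other ligand of its receptor, read 6.69, 6.60, 6.85 and 5.65. Csf2ra and Csf2rb, the receptor chains for GM-CSF, were 1.54 and 1.47 higher in overload than in sham under vehicle and 0.08 and 0.68 higher under GW4869. Ccr2, the chemokine receptor of inflammatory monocytes, read 9.47, 9.89, 9.04 and 8.25 on the 4 arrays in the same order, highest on GW4869 sham like Trem2 and Csf1r. Ly6c2, a surface marker of those monocytes, read 9.29, 8.11, 7.87 and 7.61, highest on GW4869 overload. Lymphocyte genes were dim, and 4 of 13 measured genes of T, B and NK cells had a mean above the floor, against 11703 of all 19505.

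Il4ra, the receptor for the cytokine that drives alternative activation, read 12.04 on GW4869 overload, 9.58 on GW4869 sham, 9.73 on vehicle overload and 8.57 on vehicle sham. Chil3, a chitinase-like product of such macrophages and of neutrophils, read 7.0, 4.67, 4.15 and 3.89. Mgl2 and Clec10a, lectins of alternatively activated macrophages, were lower in overload than in sham under GW4869 by -1.40 and -0.98, and their overload differences under vehicle were 0.33 and 0.65. No explanation of these values was tested.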
